A study of Mus musculus with 24 samples.

Results

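The comparison set mouse embryonic fibroblasts given the 5-gene cardiac reprogramming cocktail AGHMT (Akt1, Gata4, Hand2, Mef2c and Tbx5) against fibroblasts given GHMT, the same cocktail without Akt1, on day 2. It used 6 RNA-seq libraries of the 24 in the series, 3 labelled AGHMT and 3 labelled GHMT, and every gene of the count table. The 3 mock fibroblast libraries of day 2 served as a reference level and were not part of the contrast. Like the rest of the 24 libraries, they also entered the fit that estimated the spread between replicates. All cells came from C57BL/6 embryos of embryonic day 13.5 to 14.5. The cocktail cells received their retroviruses in 2 rounds, and all groups were then held in the same serum-containing induction medium, which holds insulin, until RNA was taken.

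The labels do not say whether GHMT cells received an empty virus in place of Akt1, or whether mock cells received any, so the added gene and an added virus cannot be told apart. No label states that replicates 1 to 3 came from separate cultures. The p-values then reflect only how far libraries varied within their groups, which could be technical. That spread was estimated over all 24 libraries of the series, not from the 6 compared libraries alone. Which form of Akt1 was used, and of which species, is not stated in the labels.

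Akt1 encodes AKT, a kinase that growth factor receptors switch on through PI3-kinase and the membrane lipid it makes. Active AKT raises mTOR complex 1 activity, nutrient uptake and survival, and it holds FoxO transcription factors out of the nucleus, so that FoxO target genes lose expression. GATA4, HAND2, MEF2C and TBX5 are transcription factors of the embryonic heart that, given together, turn on cardiac genes in fibroblasts.

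Each library held between 29345957 and 36325681 assigned reads. Levels are given as CPM, counts scaled to library size with TMM factors, with libraries in the order replicate 1, 2, 3. A ± on CPM is the SD over 3 libraries, and a ± on a log2 fold change of AGHMT over GHMT is its standard error. A gene was called higher or lower at an adjusted p below 0.05 in edgeR's quasi-likelihood test. Of 17576 genes tested, 4516 were higher in AGHMT cells (25.7%) and 4716 lower (26.8%), so 52.5% were called in all. The shares of each gene list below are to be read against these, since a list near them is like the genes at large. The size of these changes was mostly modest: the median absolute log2 fold change of called genes was 0.47, with 931 higher and 952 lower by 2-fold or more. At 4-fold or more the split was uneven, with 271 genes higher and 109 lower. The AGHMT and GHMT libraries did not overlap for 52.7% of all tested genes and for 89.8% of the called ones. Most genes named below were chosen for a small adjusted p or a large fold. A lack of overlap is therefore no further support for their calls.

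AGHMT replicate 3 stood apart from replicates 1 and 2 in a way that followed transcript length. Across 13542 genes, its deviation from the mean of the other 2 libraries of its group had a correlation of -0.606 with log2 length. The same measure gave 0.486 and 0.466 for AGHMT replicates 1 and 2. For these 2 that mean includes replicate 3, so their opposite values need not be trends of their own. The SD of log2 ratios was 0.099 between AGHMT replicates 1 and 2, against 0.289 and 0.288 between each of them and replicate 3. GHMT replicate 3 had a correlation of -0.358 with length, and the mock libraries were near 0. In 10 bins of transcript length, genes of the shortest bin had a median deviation of 0.363 (log2) in AGHMT replicate 3 and those of the longest bin -0.378. The call counts are therefore given with and without that library below. Of the 9232 called genes, 8146 were also called with the same sign without it and 0 with the opposite sign.

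**Figure D1:**
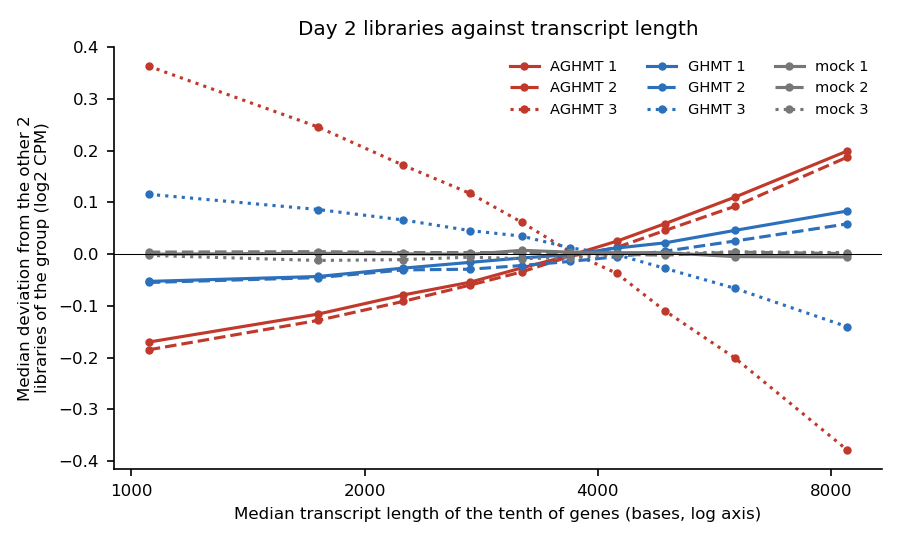
Median deviation (log2) of each day 2 library from the other 2 of its group, in 10 bins of transcript length. AGHMT replicate 3 has 0.363 in the shortest bin and -0.378 in the longest. AGHMT replicates 1 and 2 run the opposite way, which follows in part from replicate 3 being among the 2 libraries each is compared with.

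Of the cocktail genes, only Akt1 could tell the AGHMT label from the GHMT label. Akt1 (ENSMUSG00000001729, chromosome 12, 112653821-112674884, GRCm38) had 471, 449.5 and 485 CPM in the AGHMT libraries, against 385, 390.1 and 403 CPM in the GHMT libraries, and 387 ± 11.8 CPM in mock libraries (SD, n = 3). The AGHMT libraries all lay above the GHMT libraries, but the difference was small (log2 fold change 0.25 ± 0.04, edgeR, adjusted p = 1.13e-05). It was below the median absolute log2 fold change of called genes (0.47), and 25.7% of all genes were called higher. The Akt1 level therefore does not verify which libraries received Akt1. For the 4 factors that both cocktails carry, expression stood far above mock in both groups. These 4 set cocktail cells apart from mock cells but cannot show which cells received Akt1. Gata4 (ENSMUSG00000021944, chromosome 14, 63198922-63271692) had 1114, 1106 and 1176 CPM in AGHMT cells, against 1426, 1501 and 1508 CPM in GHMT cells and 1.66 ± 0.191 CPM in mock cells. It was lower in AGHMT cells (log2 fold change -0.39 ± 0.05, edgeR, adjusted p = 1.32e-07), and no AGHMT library reached a GHMT library.

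Tbx5 (ENSMUSG00000018263, chromosome 5, 119832668-119885219) had 2785, 2741 and 2381 CPM in AGHMT cells, against 3445, 3478 and 3299.9 CPM in GHMT cells and 11.3 ± 0.625 CPM in mock cells (log2 fold change -0.37 ± 0.05, edgeR, adjusted p = 4.97e-07). Hand2 (ENSMUSG00000038193, chromosome 8, 57320983-57324633) had 983, 961 and 1099 CPM in AGHMT cells, against 1142, 1168 and 1188 CPM in GHMT cells and 5.80 ± 0.179 CPM in mock cells (log2 fold change -0.20 ± 0.05, edgeR, adjusted p = 6.05e-04). Both were thus lower with Akt1, by a smaller margin for Hand2. Mef2c (ENSMUSG00000005583, chromosome 13, 83504034-83667080) averaged 2817 ± 163 CPM in AGHMT cells and 3053 ± 56.1 CPM in GHMT cells (log2 fold change -0.12 ± 0.05, edgeR, adjusted p = 0.0392), and this call was lost without AGHMT replicate 3 (edgeR, adjusted p = 0.156), without GHMT replicate 1 and without GHMT replicate 2. The counts do not separate viral from endogenous transcripts, and every difference below is between cells whose Gata4 and Tbx5 levels also differed. The part of that difference in the other results was not tested.

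**Figure D2:**
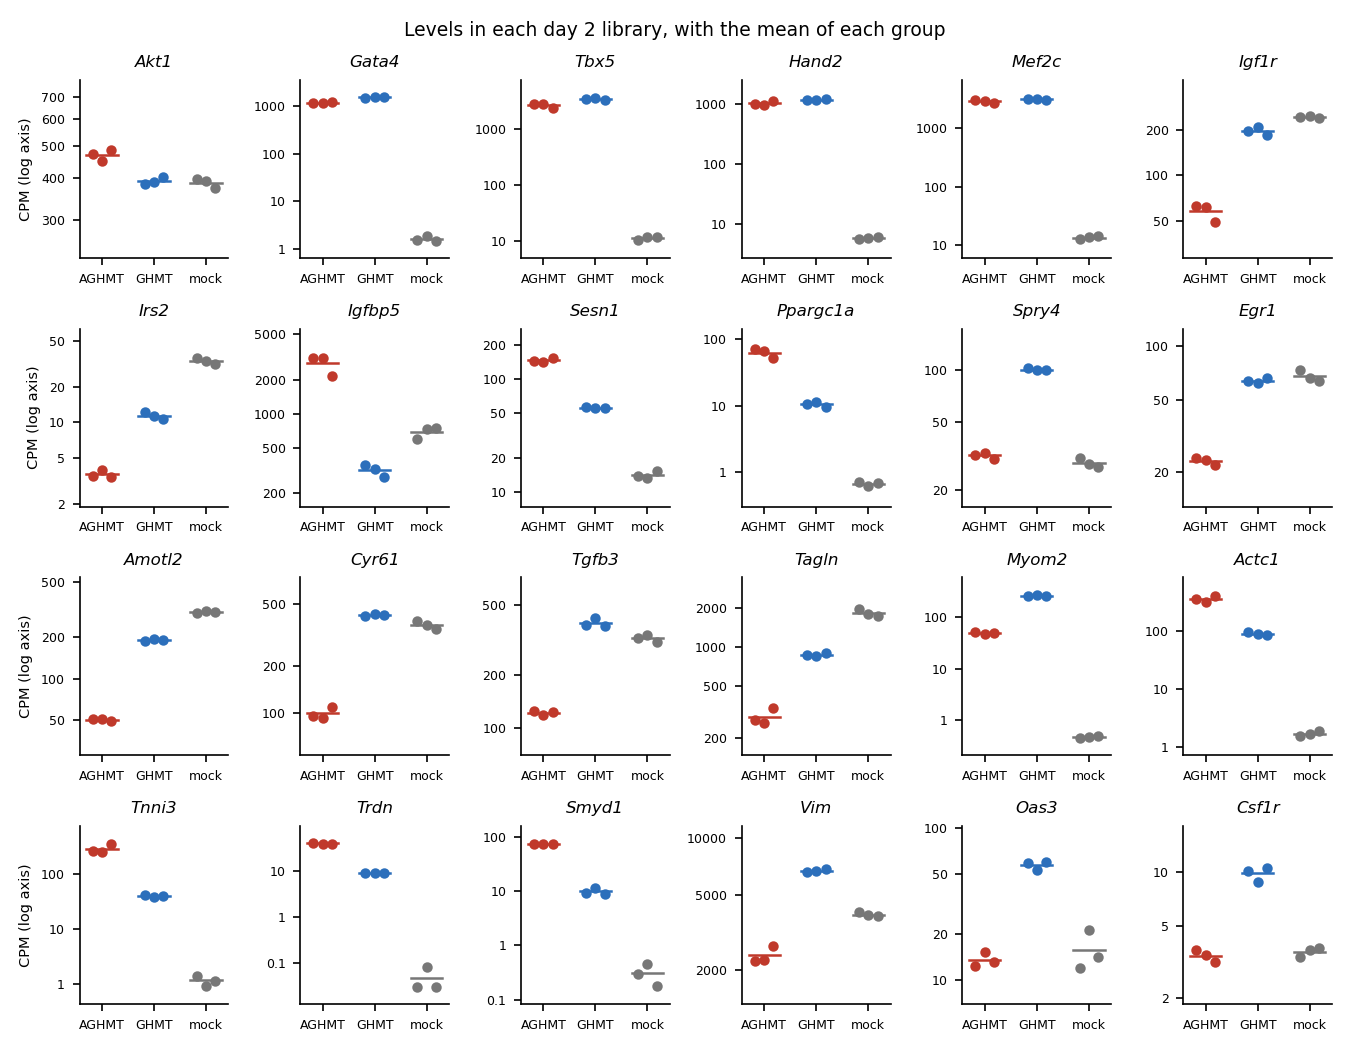
CPM (log axis) of 24 genes in each day 2 library of AGHMT, GHMT and mock cells, with the line at the group mean. Akt1 differs little between AGHMT and GHMT (log2 0.25), whereas genes such as Igf1r, Spry4, Amotl2 and Myom2 fall below every GHMT library and Igfbp5, Sesn1 and Smyd1 lie above.

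Among the genes closest to AKT, the receptor gene Igf1r and the adaptor genes Irs1 and Irs2 were lower. The list of the PI3-kinase, AKT and mTOR pathway had 12 of 39 tested members higher (30.8%) and 15 lower (38.5%), with a median log2 fold change of -0.09 (14 higher, 15 lower and 0.01 without AGHMT replicate 3). Both shares were not far above the 25.7% and 26.8% of all genes. Igf1r (ENSMUSG00000005533, chromosome 7, 67952827-68233668), the receptor for insulin-like growth factors, had 62.8, 61.7 and 49.3 CPM in AGHMT cells, against 196, 209 and 183 CPM in GHMT cells and 243 ± 3.92 CPM in mock cells (log2 fold change -1.76 ± 0.07, edgeR, adjusted p = 9.40e-18). Irs2, an adaptor that links insulin and IGF receptors to PI3-kinase, had 3.48, 3.88 and 3.41 CPM in AGHMT cells, against 12.3, 11.3 and 10.8 CPM in GHMT cells and 33.4 ± 2.00 CPM in mock cells (log2 fold change -1.68 ± 0.12, edgeR, adjusted p = 8.47e-12). Neither gene overlapped between AGHMT and GHMT libraries. Irs1, the related adaptor, was also lower (log2 fold change -1.35 ± 0.14, edgeR, adjusted p = 2.47e-08), as was Pik3cd, a catalytic subunit of PI3-kinase (log2 fold change -1.32 ± 0.10, edgeR, adjusted p = 8.97e-12).

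Higher members included regulatory subunits and brakes of the same pathway. Pik3r3 averaged 79.6 ± 8.69 CPM in AGHMT cells and 38.3 ± 1.65 CPM in GHMT cells (log2 fold change 1.05 ± 0.06, edgeR, adjusted p = 2.81e-14). Pik3r1, the p85 subunit, rose by less (log2 fold change 0.79 ± 0.06, edgeR, adjusted p = 2.42e-11). Rptor, the scaffold of mTOR complex 1, was higher (log2 fold change 0.92 ± 0.08, edgeR, adjusted p = 2.41e-10), and so was Deptor, an inhibitor of mTOR (log2 fold change 0.84 ± 0.09, edgeR, adjusted p = 5.05e-09). The IGF system list, of ligands, receptors and binding proteins, had 5 of 17 tested members higher (29.4%) and 9 lower (52.9%), with a median log2 fold change of -0.18 (5 higher, 9 lower and -0.18 without AGHMT replicate 3). Igfbp5 (ENSMUSG00000026185, chromosome 1, 72857932-72874884), a secreted IGF-binding protein, had 3085, 3099 and 2157 CPM in AGHMT cells, against 357, 328 and 277 CPM in GHMT cells and 693 ± 80.2 CPM in mock cells (log2 fold change 3.12 ± 0.13, edgeR, adjusted p = 6.33e-14). Every AGHMT library stood several-fold above every GHMT library, and replicate 3 was the lowest of the AGHMT libraries. Igfbp4 was higher as well (log2 fold change 1.63 ± 0.08, edgeR, adjusted p = 6.68e-14), whereas Igfbp7 was lower (log2 fold change -0.65 ± 0.06, edgeR, adjusted p = 1.72e-10).

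FoxO targets did not move one way. The list had 9 of 28 tested members higher (32.1%) and 11 lower (39.3%), with a median log2 fold change of -0.05 (10 higher, 12 lower and -0.10 without AGHMT replicate 3), so 71.4% of its tested members were called, against 52.5% of all genes. Sesn1, a sestrin that restrains mTOR complex 1 and is also a p53 target, had 145, 141 and 154 CPM in AGHMT cells, against 56.3, 54.6 and 54.8 CPM in GHMT cells and 14.0 ± 0.963 CPM in mock cells (log2 fold change 1.41 ± 0.05, edgeR, adjusted p = 2.06e-18). Ppargc1a, the coactivator of mitochondrial genes, had 70.7, 65.1 and 52.4 CPM in AGHMT cells, against 10.7, 11.5 and 9.46 CPM in GHMT cells and 0.680 ± 0.0535 CPM in mock cells (log2 fold change 2.57 ± 0.10, edgeR, adjusted p = 1.23e-17). Fbxo32, the muscle ubiquitin ligase atrogin-1, averaged 107 ± 8.23 CPM in AGHMT cells and 36.8 ± 1.98 CPM in GHMT cells (log2 fold change 1.53 ± 0.07, edgeR, adjusted p = 1.08e-16). All 3 were thus higher in every AGHMT library. Sod2, the mitochondrial superoxide dismutase, was higher (log2 fold change 0.97 ± 0.05, edgeR, adjusted p = 2.45e-14). Sesn3 rose by log2 0.85 ± 0.08. Pdk4, a kinase that slows pyruvate oxidation, was among the lower members (log2 fold change -0.95 ± 0.06, edgeR, adjusted p = 8.82e-13). So was Txnip, which restrains glucose uptake (log2 fold change -0.33 ± 0.06, edgeR, adjusted p = 2.60e-05).

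Bcl2l11 encodes BIM, a killer protein of the BCL-2 family and a textbook FoxO target, and it was higher in AGHMT cells. It had 54.6, 58.7 and 48.5 CPM in AGHMT cells, against 30.8, 28.1 and 28.8 CPM in GHMT cells and 37.0 ± 2.00 CPM in mock cells (log2 fold change 0.88 ± 0.06, edgeR, adjusted p = 1.15e-12). The RefSeq table gives this gene 2 promoters, and the 1 that holds the motif is shown because it carries the FoxO motif GTAAACA (in capitals, first base 227 bases before the start); it is the 250 bases before the start at chr2:128125788-128126037 (GRCm38.p6, plus strand), from the RefSeq promoter table.
Bcl2l11: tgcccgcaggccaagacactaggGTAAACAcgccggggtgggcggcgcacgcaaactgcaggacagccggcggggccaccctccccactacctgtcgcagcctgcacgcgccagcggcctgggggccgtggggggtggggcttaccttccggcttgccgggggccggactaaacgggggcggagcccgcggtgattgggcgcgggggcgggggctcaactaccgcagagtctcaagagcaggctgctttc
Searched on both strands, GTAAACA occurred in 4 of 32 promoters (12.5%) of the 27 list genes that matched the table, against 3.17% of all 32851 promoters. The holders were Bcl2l11, which was higher, Bbc3 and Txnip, which were lower, and Trim63, which was not called, so the motif did not go with a direction. A match describes these letters and is not a binding site.

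Genes of the EGF receptor and ERK response were mostly lower. The list had 4 of 34 tested members higher (11.8%) and 25 lower (73.5%), with a median log2 fold change of -0.81 (5 higher, 23 lower and -0.85 without AGHMT replicate 3), against 25.7% and 26.8% of all genes. Spry4 (ENSMUSG00000024427, chromosome 18, 38586247-38601415), an ERK-induced inhibitor of growth factor signalling, had 32.1, 32.9 and 30.1 CPM in AGHMT cells, against 103, 100.4 and 100.2 CPM in GHMT cells and 28.7 ± 1.68 CPM in mock cells (log2 fold change -1.67 ± 0.04, edgeR, adjusted p = 1.28e-20). AGHMT cells thus lay close to mock for this gene and below every GHMT library. Egr1, an immediate early transcription factor, had 23.9, 23.6 and 22.0 CPM in AGHMT cells, against 64.0, 62.2 and 66.4 CPM in GHMT cells and 67.9 ± 4.80 CPM in mock cells (log2 fold change -1.47 ± 0.06, edgeR, adjusted p = 1.07e-17). Here GHMT cells lay at the mock level and AGHMT cells below both. Dusp4, a nuclear phosphatase for ERK, averaged 8.99 ± 0.397 CPM in AGHMT cells and 30.0 ± 1.72 CPM in GHMT cells (log2 fold change -1.74 ± 0.07, edgeR, adjusted p = 1.45e-17). Spred1, another inhibitor of the RAS to ERK route, was also lower (log2 fold change -1.15 ± 0.05, edgeR, adjusted p = 9.65e-17). The 4 members that were higher were Dusp1, Dusp5, Fos and Fosb, so the list did not move in 1 direction.

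Targets of TGF-beta and of YAP, the coactivator that works through TEAD factors in spread, contractile cells, were lower or not called, and none was higher. The list had 0 of 26 tested members higher (0%) and 22 lower (84.6%), with a median log2 fold change of -0.69 (0 higher, 22 lower and -0.64 without AGHMT replicate 3), so 84.6% were lower, against 26.8% of all genes. Amotl2 (ENSMUSG00000032531, chromosome 9, 102716672-102733418), an angiomotin that binds YAP, had 50.9, 51.3 and 49.1 CPM in AGHMT cells, against 187, 192 and 189.5 CPM in GHMT cells and 303 ± 5.00 CPM in mock cells (log2 fold change -1.91 ± 0.04, edgeR, adjusted p = 7.02e-22). Cyr61 (ENSMUSG00000028195, chromosome 3, 145646976-145649981), a secreted matrix protein and YAP target, had 95.1, 92.0 and 109 CPM in AGHMT cells, against 413, 426 and 423 CPM in GHMT cells and 365 ± 21.1 CPM in mock cells (log2 fold change -2.09 ± 0.06, edgeR, adjusted p = 4.41e-20). For both genes the AGHMT libraries stood below GHMT and mock libraries alike. Axl, a receptor tyrosine kinase, was lower too (log2 fold change -1.43 ± 0.04, edgeR, adjusted p = 2.48e-19). Tgfb3, a TGF-beta ligand, was also lower (log2 fold change -1.69 ± 0.06, edgeR, adjusted p = 7.45e-19).

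The promoters of Amotl2 and Cyr61 are shown because each holds the TEAD motif, as CATTCC, the reverse complement of GGAATG (in capitals). They are the 250 bases before the RefSeq start on GRCm38.p6, Amotl2 at chr9:102717554-102717803 (plus strand, motif 65 bases before the start) and Cyr61, listed by RefSeq as Ccn1, at chr3:145649986-145650235 (minus strand, 103 bases before).
Amotl2: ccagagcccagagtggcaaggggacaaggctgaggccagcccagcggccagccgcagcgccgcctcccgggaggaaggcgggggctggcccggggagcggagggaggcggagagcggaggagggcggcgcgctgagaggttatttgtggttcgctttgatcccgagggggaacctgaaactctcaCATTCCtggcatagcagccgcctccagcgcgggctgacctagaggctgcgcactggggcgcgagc
Cyr61: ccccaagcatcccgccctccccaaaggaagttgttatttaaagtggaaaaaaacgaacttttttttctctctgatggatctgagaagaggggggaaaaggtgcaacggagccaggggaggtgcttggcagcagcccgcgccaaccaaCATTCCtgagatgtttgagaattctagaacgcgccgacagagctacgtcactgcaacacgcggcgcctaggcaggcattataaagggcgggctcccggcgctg
GGAATG on either strand occurred in 6 of 20 list promoters (30.0%), against 12.6% of all promoters, a search added after the values were seen. The 6 genes were Cyr61, Ankrd1, Amotl2, Ajuba, Axl and Id3, and all 6 were lower in AGHMT cells, as were 84.6% of the tested members of the list.

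Smooth muscle and myofibroblast genes were mostly lower as well. The list had 3 of 20 tested members higher (15%) and 15 lower (75%), with a median log2 fold change of -0.68 (3 higher, 14 lower and -0.84 without AGHMT replicate 3). Tagln (ENSMUSG00000032085, chromosome 9, 45929619-45936058), the actin-binding protein SM22, had 274, 259 and 339.8 CPM in AGHMT cells, against 866, 857 and 895 CPM in GHMT cells and 1825 ± 106 CPM in mock cells (log2 fold change -1.59 ± 0.07, edgeR, adjusted p = 1.96e-16). The 3 groups of libraries did not overlap, with AGHMT lowest and mock highest. Cnn2, a calponin, averaged 269 ± 23.9 CPM in AGHMT cells and 680.5 ± 6.94 CPM in GHMT cells (log2 fold change -1.34 ± 0.05, edgeR, adjusted p = 3.10e-17). Lmod1, an actin filament nucleator of smooth muscle, fell by less (log2 fold change -1.08 ± 0.05, edgeR, adjusted p = 8.28e-16). Synpo2, a Z-disc-associated actin bundler also present in striated muscle, went the other way (log2 fold change 1.67 ± 0.09, edgeR, adjusted p = 7.73e-15).

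Cardiac contractile genes were split, with large changes in both directions. The sarcomere list had 19 of 42 tested members higher (45.2%) and 14 lower (33.3%), with a median log2 fold change of 0.20 (18 higher, 15 lower and 0.07 without AGHMT replicate 3), against 25.7% and 26.8% of all genes. Actc1 (ENSMUSG00000068614, chromosome 2, 114047282-114053548), the cardiac alpha-actin, had 349, 317 and 398 CPM in AGHMT cells, against 95.3, 89.6 and 84.9 CPM in GHMT cells and 1.69 ± 0.203 CPM in mock cells (log2 fold change 1.98 ± 0.07, edgeR, adjusted p = 2.33e-18). Actn2, the Z-disc alpha-actinin, averaged 38.7 ± 1.4 CPM in AGHMT cells and 11.5 ± 0.222 CPM in GHMT cells (log2 fold change 1.75 ± 0.06, edgeR, adjusted p = 9.61e-19). Tmod1, which caps thin filaments, averaged 107 ± 8.59 CPM in AGHMT cells and 27.7 ± 1.26 CPM in GHMT cells (log2 fold change 1.95 ± 0.06, edgeR, adjusted p = 4.61e-19). All 3 were higher in every AGHMT library. Myom2 (ENSMUSG00000031461, chromosome 8, 15057653-15133541), an M-band protein of the adult sarcomere, had 50.7, 47.0 and 48.9 CPM in AGHMT cells, against 253, 264 and 253 CPM in GHMT cells and 0.487 ± 0.0211 CPM in mock cells (log2 fold change -2.39 ± 0.04, edgeR, adjusted p = 1.53e-23). It had the smallest adjusted p of all genes tested, and its change was opposite to those of Actc1, Actn2 and Tmod1.

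The following sarcomere genes were singled out after their values were seen, because they are standard markers of cardiomyocytes. Tnni3, cardiac troponin I, had 259, 245 and 344 CPM in AGHMT cells, against 40.1, 38.0 and 39.4 CPM in GHMT cells and 1.14 ± 0.225 CPM in mock cells (log2 fold change 2.85 ± 0.09, edgeR, adjusted p = 5.54e-18). Myh6, a cardiac myosin heavy chain, averaged 1381 ± 107 CPM in AGHMT cells and 194 ± 22.9 CPM in GHMT cells (log2 fold change 2.83 ± 0.09, edgeR, adjusted p = 6.83e-18), although its reads can be shared with the near-identical neighbour Myh7. Tnnt2, cardiac troponin T, did not pass the test, averaging 7093 ± 1222 CPM in AGHMT cells and 6389 ± 144 CPM in GHMT cells (log2 fold change 0.15 ± 0.07, edgeR, adjusted p = 0.0952). Ttn, the giant titin, averaged 307 ± 138 CPM in AGHMT cells and 252 ± 48.6 CPM in GHMT cells (log2 fold change 0.28 ± 0.26, edgeR, adjusted p = 0.377). Ttn is among the longest transcripts, and without AGHMT replicate 3 it passed the test at log2 0.61 (edgeR, adjusted p = 0.00495).

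Genes of calcium handling and of cardiac ion channels were higher more often than lower. The list had 21 of 41 tested members higher (51.2%) and 7 lower (17.1%), with a median log2 fold change of 0.50 (24 higher, 8 lower and 0.57 without AGHMT replicate 3), so 51.2% were higher, against 25.7% of all genes. Trdn, triadin of the calcium release complex, had 40.8, 37.8 and 38.6 CPM in AGHMT cells, against 8.92, 8.74 and 8.72 CPM in GHMT cells and 0.0467 ± 0.0298 CPM in mock cells (log2 fold change 2.15 ± 0.06, edgeR, adjusted p = 2.32e-20). Hrc, a calcium-binding protein of the sarcoplasmic reticulum, averaged 24.9 ± 1.48 CPM in AGHMT cells and 9.58 ± 0.413 CPM in GHMT cells (log2 fold change 1.38 ± 0.08, edgeR, adjusted p = 8.55e-14). Kcnj3, a potassium channel of atrial and pacemaker cells, averaged 25.5 ± 1.85 CPM in AGHMT cells and 4.61 ± 0.213 CPM in GHMT cells (log2 fold change 2.47 ± 0.10, edgeR, adjusted p = 2.87e-17). These 3 genes were barely present in mock cells and higher in every AGHMT library than in any GHMT library. Popdc2, a membrane protein of the heart and conduction system, was lower (log2 fold change -1.67 ± 0.05, edgeR, adjusted p = 3.86e-19).

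Cardiac transcription factors outside the cocktail included genes with large changes either way. The list had 12 of 34 tested members higher (35.3%) and 11 lower (32.4%), with a median log2 fold change of 0.01 (13 higher, 10 lower and 0.07 without AGHMT replicate 3), against 25.7% and 26.8% of all genes, which split as evenly. Smyd1 (ENSMUSG00000055027, chromosome 6, 71213940-71322233), a muscle histone methyltransferase needed for heart formation, had 72.5, 73.1 and 73.0 CPM in AGHMT cells, against 9.18, 11.2 and 8.92 CPM in GHMT cells and 0.310 ± 0.141 CPM in mock cells (log2 fold change 2.90 ± 0.08, edgeR, adjusted p = 1.72e-20). The AGHMT libraries stood several-fold above GHMT libraries that were themselves far above mock. Hey2, a Notch-responsive repressor of the ventricle, was higher (log2 fold change 1.98 ± 0.08, edgeR, adjusted p = 9.82e-17). Tbx2, a repressor of the non-chamber myocardium, was higher too (log2 fold change 1.21 ± 0.05, edgeR, adjusted p = 5.33e-17). Ankrd1, a stress-induced nuclear protein that is also a YAP target, was lower (log2 fold change -1.75 ± 0.08, edgeR, adjusted p = 5.37e-16). Of the natriuretic and atrial list, 5 of 16 were higher (31.2%) and 6 lower (37.5%), not far above the 25.7% and 26.8% of all genes. Without AGHMT replicate 3 the counts were 6 higher and 6 lower. Both natriuretic peptide genes were lower: Nppb averaged 6.85 ± 0.455 CPM in AGHMT cells and 23.5 ± 2.83 CPM in GHMT cells (log2 fold change -1.78 ± 0.11, edgeR, adjusted p = 1.38e-12), and Nppa averaged 13.4 ± 1.62 CPM in AGHMT cells and 24.5 ± 2.67 CPM in GHMT cells (log2 fold change -0.86 ± 0.11, edgeR, adjusted p = 4.00e-07). Gja5, the atrial gap junction protein connexin 40, was lower as well (log2 fold change -0.84 ± 0.07, edgeR, adjusted p = 1.22e-10).

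Genes best known from skeletal muscle were, as a list, called less often than the genes at large, mainly because few were lower. The list had 5 of 17 tested members higher (29.4%) and 2 lower (11.8%), with a median log2 fold change of 0.10 (4 higher, 2 lower and 0.06 without AGHMT replicate 3), so 41.2% were called, against 52.5% of all genes. Among all genes 25.7% were higher and 26.8% lower. Myl1, the fast skeletal alkali light chain, had 72.0, 69.0 and 90.7 CPM in AGHMT cells, against 5.12, 5.40 and 5.00 CPM in GHMT cells and 0.499 ± 0.111 CPM in mock cells (log2 fold change 3.90 ± 0.11, edgeR, adjusted p = 2.87e-19). Tnnt1, slow skeletal troponin T, averaged 1.52 ± 0.188 CPM in AGHMT cells and 0.497 ± 0.0859 CPM in GHMT cells (log2 fold change 1.61 ± 0.18, edgeR, adjusted p = 2.70e-08). Actn3 was higher (log2 fold change 0.84 ± 0.08, edgeR, adjusted p = 8.64e-10). Myh1, a fast myosin heavy chain with close copies beside it, was lower (log2 fold change -1.36 ± 0.26, edgeR, adjusted p = 6.77e-05). The defining regulators of skeletal muscle were near 0 in both groups: Myod1 averaged 0.0491 ± 0.0328 CPM in AGHMT cells and 0.0331 ± 0.0574 CPM in GHMT cells, and Myog averaged 0.0870 ± 0.0710 CPM in AGHMT cells and 0.0884 ± 0.0194 CPM in GHMT cells.

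Genes of mitochondrial respiration were higher almost throughout. The oxidative phosphorylation list had 45 of 46 tested members higher (97.8%) and 0 lower (0%), with a median log2 fold change of 0.56 (45 higher, 0 lower and 0.43 without AGHMT replicate 3), so 97.8% were higher, against 25.7% of all genes. Its members are short, with a median transcript of 1386.5 bases, and short transcripts are the ones that sat high in AGHMT replicate 3. Under offsets for GC content and length 45 members were higher, with a median of 0.49. Cox6a2 and Cox7a1, the muscle forms of complex IV subunits, gave the largest changes. Cox6a2 averaged 5.39 ± 0.770 CPM in AGHMT cells and 0.641 ± 0.114 CPM in GHMT cells (log2 fold change 3.07 ± 0.16, edgeR, adjusted p = 1.17e-14). Cox7a1 averaged 10.9 ± 1.88 CPM in AGHMT cells and 2.55 ± 0.199 CPM in GHMT cells (log2 fold change 2.10 ± 0.13, edgeR, adjusted p = 1.35e-13). Atp5a1 and Cyc1, which all cells use, rose by less. Atp5a1, a subunit of ATP synthase, had 955, 914 and 1049 CPM in AGHMT cells, against 635, 629 and 658 CPM in GHMT cells and 613 ± 11.6 CPM in mock cells (log2 fold change 0.60 ± 0.04, edgeR, adjusted p = 4.50e-12). Cyc1, of complex III, was higher by a similar amount (log2 fold change 0.71 ± 0.05, edgeR, adjusted p = 2.40e-12). Cox8b was the 1 tested member not called.

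Glycolysis genes were higher more often than lower, and the forms of phosphofructokinase moved in opposite directions. The list had 15 of 23 tested members higher (65.2%) and 4 lower (17.4%), with a median log2 fold change of 0.37 (15 higher, 6 lower and 0.27 without AGHMT replicate 3). Pfkm, the muscle form, averaged 144 ± 5.91 CPM in AGHMT cells and 64.9 ± 1.34 CPM in GHMT cells (log2 fold change 1.15 ± 0.04, edgeR, adjusted p = 5.25e-19), whereas Pfkp, the platelet form, averaged 75.5 ± 0.802 CPM in AGHMT cells and 133 ± 3.13 CPM in GHMT cells (log2 fold change -0.82 ± 0.04, edgeR, adjusted p = 2.46e-15). Ldhb, the heart lactate dehydrogenase, was higher (log2 fold change 1.39 ± 0.07, edgeR, adjusted p = 8.74e-16). Pdk1, a kinase that slows pyruvate oxidation, was higher too (log2 fold change 0.90 ± 0.05, edgeR, adjusted p = 3.09e-15). In fatty acid oxidation the list had 18 of 26 tested members higher (69.2%) and 4 lower (15.4%), with a median log2 fold change of 0.32 (19 higher, 4 lower and 0.27 without AGHMT replicate 3). Acsl1, which activates fatty acids, was higher (log2 fold change 1.25 ± 0.06, edgeR, adjusted p = 7.05e-16), as was Hadh, of the beta-oxidation spiral (log2 fold change 0.59 ± 0.05, edgeR, adjusted p = 6.68e-11). The sterol and fatty acid synthesis list, which holds targets of SREBP, had 18 of 32 tested members higher (56.2%) and 9 lower (28.1%), with a median log2 fold change of 0.19 (19 higher, 8 lower and 0.15 without AGHMT replicate 3). Scd2, a fatty acid desaturase, averaged 2192 ± 142 CPM in AGHMT cells and 994 ± 43.0 CPM in GHMT cells (log2 fold change 1.14 ± 0.05, edgeR, adjusted p = 1.43e-16), Scd1 was higher by log2 0.90 ± 0.05, Me1 by 0.89 ± 0.04 and the sterol enzyme Msmo1 by 0.98 ± 0.06. The sterol motif TCACNCCAC, on either strand, occurred in 1 of 28 list promoters (3.57%), that of Hmgcs1, against 1.05% of all promoters.

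Genes of the amino acid response and of ribosome synthesis were lower more often than higher. The ATF4 and amino acid response list had 7 of 40 tested members higher (17.5%) and 20 lower (50%), with a median log2 fold change of -0.13 (6 higher, 22 lower and -0.18 without AGHMT replicate 3). Nupr1, a stress-induced chromatin protein, was lower (log2 fold change -1.11 ± 0.08, edgeR, adjusted p = 5.06e-12). Slc38a2, an amino acid transporter, was lower (log2 fold change -0.61 ± 0.04, edgeR, adjusted p = 5.56e-12). Ddit4, an mTOR inhibitor induced by stress, was higher (log2 fold change 1.07 ± 0.06, edgeR, adjusted p = 1.20e-14), as was Gpt2, an alanine aminotransferase (log2 fold change 0.73 ± 0.05, edgeR, adjusted p = 1.80e-12). The C/EBP-ATF motif TGATGNAAN, on either strand, occurred in 9 of 37 list promoters (24.3%), against 3.44% of all promoters. Of the ribosome synthesis list, 1 of 30 tested members was higher (3.33%) and 24 lower (80%), against 25.7% and 26.8% of all genes. Without AGHMT replicate 3 the counts were 1 and 26. Myc (ENSMUSG00000022346, chromosome 15, 61985391-61990374), which drives ribosome synthesis, had 10.4, 9.40 and 10.9 CPM in AGHMT cells, against 23.8, 24.7 and 28.4 CPM in GHMT cells and 49.8 ± 4.05 CPM in mock cells (log2 fold change -1.32 ± 0.08, edgeR, adjusted p = 7.27e-14). The nucleolar proteins Gnl3 (log2 fold change -0.83 ± 0.06, edgeR, adjusted p = 3.45e-12), Ddx21 (log2 -0.48 ± 0.04) and Wdr43 (log2 -0.44 ± 0.04) were lower too, and Wdr12 was the 1 member that was higher. The hypoxia response list had 9 of 18 tested members higher (50%) and 6 lower (33.3%), with a median log2 fold change of 0.06 (9 higher, 6 lower and 0.02 without AGHMT replicate 3), with Adm, adrenomedullin, higher (log2 fold change 1.08 ± 0.08, edgeR, adjusted p = 2.61e-12), Vegfa higher by log2 0.49 ± 0.05 and Ndrg1 lower (log2 fold change -1.54 ± 0.07, edgeR, adjusted p = 1.96e-16).

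Interferon-stimulated genes, the antiviral programme of the cell, were lower in AGHMT cells wherever they were called. The list had 0 of 41 tested members higher (0%) and 31 lower (75.6%), with a median log2 fold change of -0.79 (0 higher, 32 lower and -0.87 without AGHMT replicate 3). Oas3, an enzyme that senses double-stranded RNA, had 12.5, 15.4 and 13.2 CPM in AGHMT cells, against 59.2, 52.7 and 59.5 CPM in GHMT cells and 15.9 ± 4.78 CPM in mock cells (log2 fold change -2.07 ± 0.19, edgeR, adjusted p = 3.97e-08). AGHMT libraries were thus close to mock libraries, while every GHMT library stood above both. Ifit2, which blocks translation of viral RNA, had 122, 178 and 143 CPM in AGHMT cells, against 500.3, 385 and 436 CPM in GHMT cells and 159 ± 49.2 CPM in mock cells (log2 fold change -1.58 ± 0.18, edgeR, adjusted p = 5.76e-07). Oas2 was lower (log2 fold change -1.66 ± 0.21, edgeR, adjusted p = 1.91e-06). Irf1, a transcription factor of the response, fell by less (log2 fold change -0.70 ± 0.09, edgeR, adjusted p = 1.28e-07). Oas and Ifit genes have close copies, so reads among family members can be split. The interferon-stimulated response element core, 2 GAAA repeats set 2 bases apart on either strand, occurred in 15 of 35 list promoters (42.9%), against 2.98% of all promoters, a search added after the values were seen.

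The inflammatory list had 2 of 28 tested members higher (7.14%) and 15 lower (53.6%), with a median log2 fold change of -0.60 (2 higher, 15 lower and -0.79 without AGHMT replicate 3). Csf1, the growth factor of macrophages, was lower (log2 fold change -0.94 ± 0.05, edgeR, adjusted p = 7.37e-15), as was Vcam1, an adhesion molecule for leukocytes (log2 fold change -0.96 ± 0.05, edgeR, adjusted p = 3.31e-14). Icam1, another adhesion molecule, was lower at log2 -0.44 ± 0.05, and Cxcl12, a stromal chemokine, was higher (log2 fold change 0.71 ± 0.07, edgeR, adjusted p = 1.30e-09). Macrophage markers were lower as well, and their list had 0 of 22 tested members higher (0%) and 18 lower (81.8%), with a median log2 fold change of -1.26 (0 higher, 17 lower and -1.35 without AGHMT replicate 3). In bulk samples, fewer cells of a type and less RNA per cell cannot be told apart. Csf1r, the receptor for Csf1 and a defining marker, had 3.71, 3.45 and 3.16 CPM in AGHMT cells, against 10.1, 8.77 and 10.6 CPM in GHMT cells and 3.62 ± 0.209 CPM in mock cells (log2 fold change -1.51 ± 0.17, edgeR, adjusted p = 1.58e-07). Lyz2, lysozyme, averaged 5.85 ± 1.01 CPM in AGHMT cells and 11.9 ± 1.41 CPM in GHMT cells (log2 fold change -1.01 ± 0.21, edgeR, adjusted p = 4.68e-04), Ctss, a lysosomal protease, was lower at log2 -1.38 ± 0.28 and Fcer1g, an Fc receptor chain, at -1.17 ± 0.22. The leukocyte marker Ptprc, CD45, was near 0, averaging 0.253 ± 0.117 CPM in AGHMT cells and 0.641 ± 0.0993 CPM in GHMT cells. The summed level of all the macrophage markers was 19.1 to 24.2 CPM in AGHMT libraries, against 43.7 to 51.7 CPM in GHMT libraries and 69.5 to 70.2 CPM in mock libraries, so mock cells had the highest sum. The part of these markers in the interferon and inflammatory differences was not tested.

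Few proliferation genes were called. Of the S phase list 3 of 30 were higher and 5 lower, and of the G2 and M phase list 2 of 30 were higher and 4 lower, so 26.7% and 20% were called, against 52.5% of all genes. Without AGHMT replicate 3 the S phase counts were 1 and 6, and those of G2 and M phase 2 and 5. Mcm6, of the replicative helicase, was lower (log2 fold change -0.68 ± 0.05, edgeR, adjusted p = 1.59e-11). Ccne1, cyclin E1, was higher (log2 fold change 0.54 ± 0.07, edgeR, adjusted p = 9.58e-07). Tpx2, a spindle protein, was higher (log2 fold change 0.85 ± 0.06, edgeR, adjusted p = 1.20e-12). Foxm1, a driver of mitotic genes, was lower (log2 fold change -0.38 ± 0.10, edgeR, adjusted p = 0.00181). Among cyclins and CDK inhibitors, 3 of 12 were higher (25%) and 6 lower (50%), against 25.7% and 26.8% of all genes. Without AGHMT replicate 3 the counts were 3 higher and 7 lower. Ccnd1, cyclin D1, which growth factor signals induce, averaged 53.8 ± 6.07 CPM in AGHMT cells and 135 ± 3.08 CPM in GHMT cells (log2 fold change -1.33 ± 0.06, edgeR, adjusted p = 1.03e-16). Cdkn1c, the CDK inhibitor p57, averaged 661 ± 102 CPM in AGHMT cells and 159 ± 4.44 CPM in GHMT cells (log2 fold change 2.05 ± 0.09, edgeR, adjusted p = 1.01e-14). Ccnd3 was lower at log2 -0.73 ± 0.04 and Cdkn2c at -0.68 ± 0.08.

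Among p53 targets, the list had 13 of 25 tested members higher (52%) and 5 lower (20%), with a median log2 fold change of 0.09 (13 higher, 6 lower and 0.12 without AGHMT replicate 3). Tigar, which lowers glycolytic flux, was higher (log2 fold change 0.82 ± 0.05, edgeR, adjusted p = 1.91e-14), as were Perp, a death effector of the cell membrane (log2 0.75 ± 0.07), and Trp53inp1 (log2 0.46 ± 0.06). The apoptosis list had 4 of 24 tested members higher (16.7%) and 11 lower (45.8%), with a median log2 fold change of -0.06 (4 higher, 12 lower and -0.15 without AGHMT replicate 3). Bcl2, which protects cells, was lower (log2 fold change -1.28 ± 0.09, edgeR, adjusted p = 1.51e-12). Bcl2l2, also protective, was lower at log2 -0.56 ± 0.04. The lysosome and autophagy list had 8 of 33 tested members higher (24.2%) and 14 lower (42.4%), with a median log2 fold change of -0.04 (7 higher, 17 lower and -0.13 without AGHMT replicate 3). Tfeb, the regulator of lysosomal genes that mTOR complex 1 holds in the cytoplasm, was higher (log2 fold change 0.86 ± 0.09, edgeR, adjusted p = 4.60e-09), and its relative Mitf was higher by log2 0.47 ± 0.06. Gpnmb, a glycoprotein that macrophages also make, was lower (log2 fold change -1.64 ± 0.05, edgeR, adjusted p = 2.24e-20).

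Fibroblast and matrix genes were lower more often than higher, and their list had 11 of 53 tested members higher (20.8%) and 28 lower (52.8%), with a median log2 fold change of -0.27 (12 higher, 27 lower and -0.31 without AGHMT replicate 3). Vim (ENSMUSG00000026728, chromosome 2, 13573927-13582826), the intermediate filament vimentin of mesenchymal cells, had 2246, 2257 and 2687 CPM in AGHMT cells, against 6593, 6649 and 6809 CPM in GHMT cells and 3928 ± 90.7 CPM in mock cells (log2 fold change -1.48 ± 0.06, edgeR, adjusted p = 8.32e-18). GHMT cells thus lay above mock and AGHMT cells below it. Thbs1, a matrix glycoprotein that activates TGF-beta, was lower (log2 fold change -1.48 ± 0.06, edgeR, adjusted p = 7.52e-17), and Lox, which cross-links collagen, was lower (log2 fold change -1.04 ± 0.05, edgeR, adjusted p = 4.83e-15). Fbln5, an elastic fibre protein, was lower (log2 fold change -0.73 ± 0.04, edgeR, adjusted p = 1.93e-13). Vim was abundant in every library of the 3 groups, but it marks mesenchymal cells and not fibroblasts alone. The summed level of the list was 48798.2 to 56121.7 CPM in AGHMT libraries and 64615.4 to 69851.5 CPM in GHMT libraries. In mock libraries the sum was 104916 to 112284 CPM.

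As lists, markers of other cell types were called about as often as the genes at large or less. The shares called were 46.2% for endothelial, 36.4% for epithelial and mesothelial, 44.4% for neural and glial, 58.8% for cartilage and bone and 55.6% for adipocyte markers, against 52.5% of all genes. The summed endothelial level was 98.1 to 121 CPM in AGHMT libraries, against 197 to 219 CPM in GHMT libraries and 193 to 209 CPM in mock libraries. Of the endothelial list 3 of 13 tested members were higher and 3 lower: Kdr (log2 fold change 2.02 ± 0.15, edgeR, adjusted p = 1.41e-11) and Pecam1 (log2 2.13 ± 0.23) were higher, Flt1 (log2 -1.26 ± 0.07) and Eng (log2 -0.79 ± 0.05) lower. Of the epithelial and mesothelial list 1 of 11 was higher and 3 lower, with Msln, mesothelin, (log2 fold change -1.91 ± 0.08, edgeR, adjusted p = 1.94e-16) and the keratin Krt19 (log2 -2.60 ± 0.15) lower. Of the neural and glial list 3 of 18 were higher and 5 lower, the filament gene Nes, nestin, being lower (log2 fold change -1.92 ± 0.07, edgeR, adjusted p = 7.98e-18). Elavl3 was higher (log2 fold change 2.97, edgeR, adjusted p = 9.37e-05). Its relative Elavl4 was lower (log2 fold change -1.44, edgeR, adjusted p = 6.32e-04). Of the cartilage and bone list 7 of 17 were higher and 3 lower, with Comp, a cartilage matrix protein, higher (log2 fold change 1.72 ± 0.13, edgeR, adjusted p = 1.62e-11). Of the adipocyte list 4 of 18 were higher and 6 lower, with Pparg, the master regulator of fat cells, lower (log2 fold change -0.58 ± 0.10, edgeR, adjusted p = 1.63e-05) and Plin2, a lipid droplet coat protein, higher (log2 fold change 0.69 ± 0.06, edgeR, adjusted p = 1.47e-10). Without AGHMT replicate 3 the counts were 3 higher and 3 lower for the endothelial list, 1 higher and 4 lower for the epithelial and mesothelial list, 3 higher and 5 lower for the neural and glial list, 7 higher and 3 lower for the cartilage and bone list and 3 higher and 5 lower for the adipocyte list. The part of these cells in other results was not tested.

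**Figure D3:**
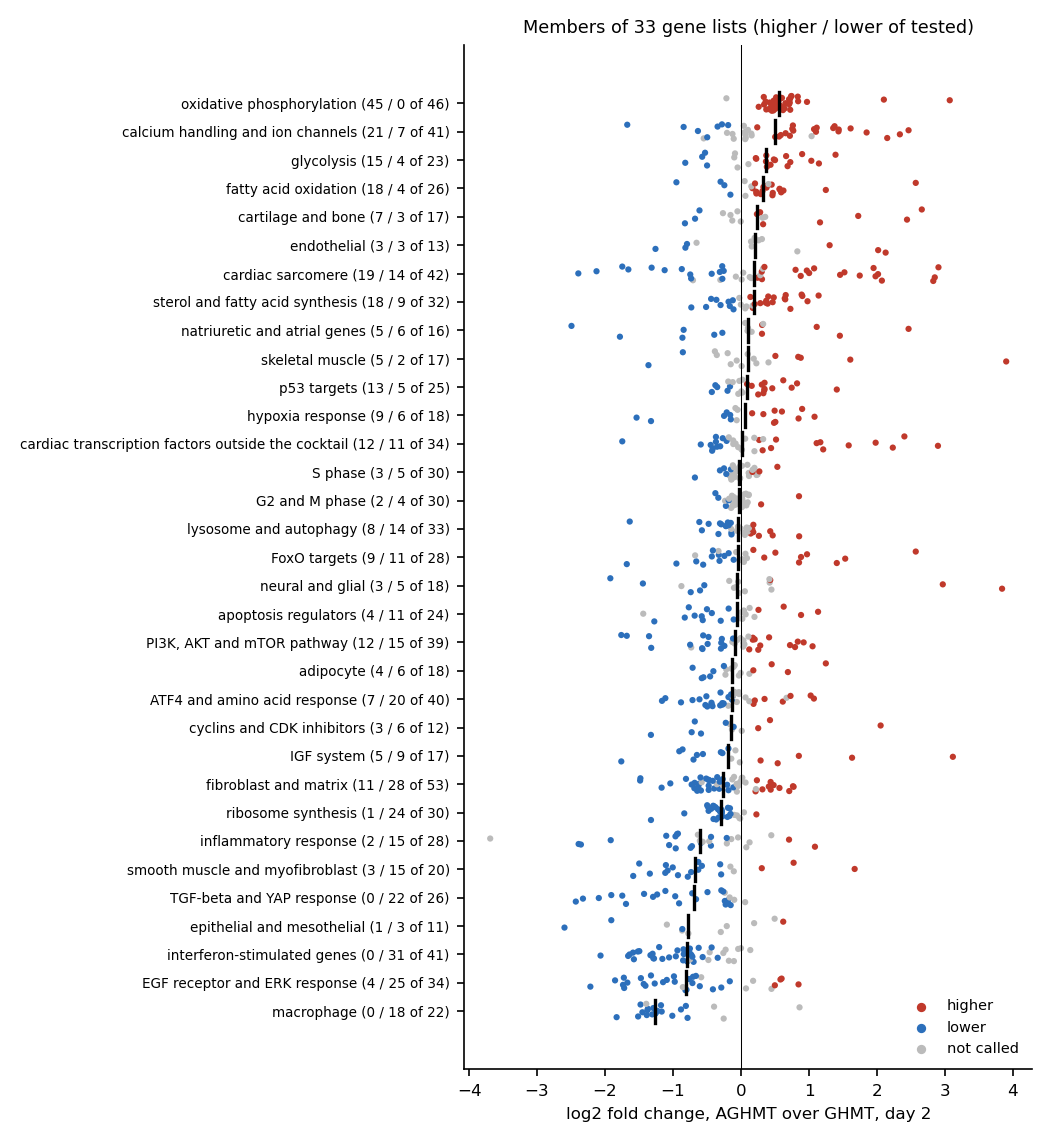
Log2 fold change of AGHMT over GHMT for each tested member of 33 gene lists, with the median of each list. Oxidative phosphorylation lies at the top with a median of 0.56, and the macrophage list at the bottom with -1.26.

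Among genes that passed the naming rule, the largest increase was that of Ntsr2. This neurotensin receptor gene had 6.84, 4.83 and 7.01 CPM in AGHMT cells, against 0.132, 0.0993 and 0.0666 CPM in GHMT cells and no reads in mock cells (log2 fold change 5.92 ± 0.25, edgeR, adjusted p = 3.29e-15). Gal, the neuropeptide galanin, had 164, 142 and 214 CPM in AGHMT cells, against 8.49, 8.08 and 10.7 CPM in GHMT cells and 0.373 ± 0.108 CPM in mock cells (log2 fold change 4.26 ± 0.13, edgeR, adjusted p = 7.81e-17). Th, the rate-limiting enzyme of catecholamine synthesis, averaged 5.59 ± 0.726 CPM in AGHMT cells and 0.243 ± 0.137 CPM in GHMT cells (log2 fold change 4.51 ± 0.27, edgeR, adjusted p = 1.30e-13). The naming rule required that AGHMT and GHMT libraries not overlap, so their separation in these genes was set by the choice. Mybpc1, slow skeletal myosin-binding protein C, averaged 11.1 ± 0.252 CPM in AGHMT cells and 0.442 ± 0.217 CPM in GHMT cells (log2 fold change 4.64 ± 0.16, edgeR, adjusted p = 9.11e-19). Others among the 15 highest were Slco5a1 (log2 4.39 ± 0.14), Cldn23, a claudin (3.95 ± 0.20), Igsf1 (3.65 ± 0.15), Camk1g, a calcium-dependent kinase (3.49 ± 0.09), Scara5, a ferritin receptor (3.32 ± 0.12), Kcnq3, a potassium channel (3.31 ± 0.18), Unc5d, a netrin receptor (3.22 ± 0.14), Gsta4, a glutathione transferase (3.17 ± 0.12), and Palmd (3.14 ± 0.12).

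Ildr2, an immunoglobulin-like receptor gene, gave the largest decrease under the same rule. It had 6.43, 5.39 and 5.04 CPM in AGHMT cells, against 50.7, 51.6 and 45.1 CPM in GHMT cells and 5.84 ± 0.905 CPM in mock cells (log2 fold change -3.13 ± 0.09, edgeR, adjusted p = 3.46e-20). Klf5, a growth-promoting transcription factor, had 2.14, 2.56 and 2.27 CPM in AGHMT cells, against 13.8, 13.6 and 12.3 CPM in GHMT cells and 6.00 ± 0.412 CPM in mock cells (log2 fold change -2.51 ± 0.11, edgeR, adjusted p = 3.17e-16). Pdlim3, an actin-associated Z-disc protein, averaged 6.98 ± 0.443 CPM in AGHMT cells and 38.9 ± 2.01 CPM in GHMT cells (log2 fold change -2.48 ± 0.05, edgeR, adjusted p = 3.84e-22). The naming rule admitted only genes whose AGHMT and GHMT libraries did not overlap. Others among the 15 lowest were Gpr39, a zinc-sensing receptor (log2 -3.11 ± 0.15), Maff, a small bZIP factor (-2.86 ± 0.08), Ptprq (-2.84 ± 0.12), Col19a1, a collagen (-2.58 ± 0.14), Tmem204 (-2.54 ± 0.13) and Gprc5a (-2.43 ± 0.11). Genes with smaller folds but very small adjusted p included Atp1b1, a sodium pump subunit (log2 fold change 2.06 ± 0.04, edgeR, adjusted p = 1.91e-22), Galc, galactosylceramidase (log2 fold change 1.97 ± 0.05, edgeR, adjusted p = 1.27e-21), Htra3, a secreted protease (log2 fold change 2.98 ± 0.07, edgeR, adjusted p = 1.58e-21), and Fabp5, a fatty acid binding protein (log2 fold change 2.08 ± 0.05, edgeR, adjusted p = 2.30e-21). Fads3, a member of the fatty acid desaturase family, was lower with a similarly small value (log2 fold change -1.77 ± 0.04, edgeR, adjusted p = 1.03e-21).

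**Figure D4:**
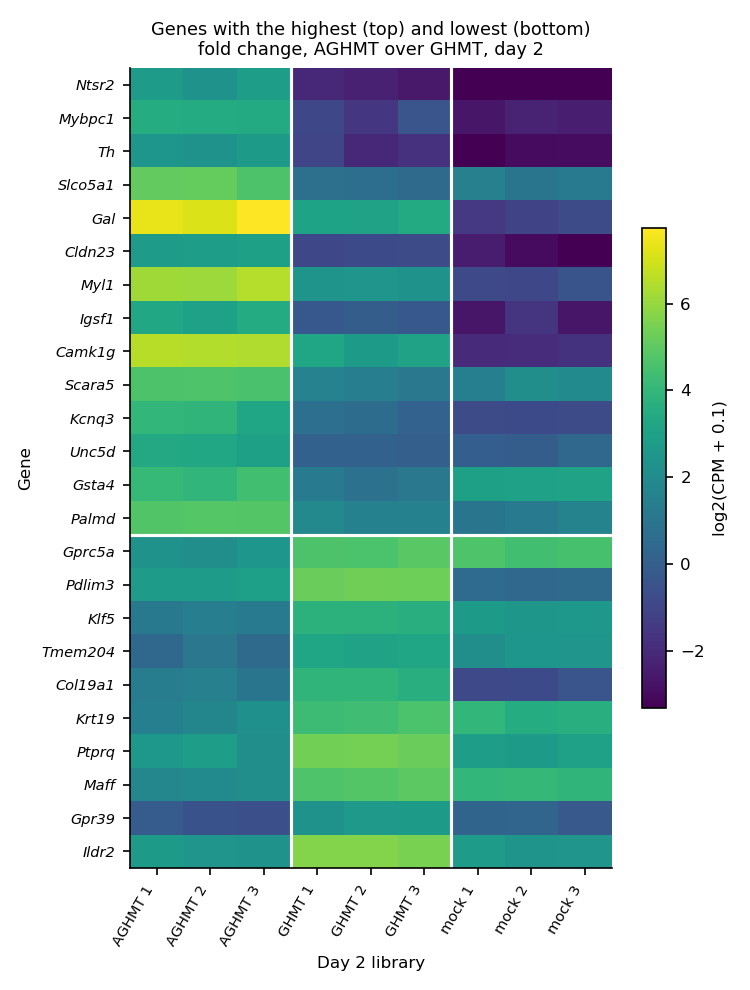
Heat map of log2(CPM + 0.1) in each day 2 library for the genes named here among the 15 largest increases and the 15 largest decreases by log2 fold change of AGHMT over GHMT. The rule that chose the genes requires that AGHMT and GHMT libraries not overlap, and the rows run from Ntsr2 (log2 fold change 5.92) to Ildr2 (-3.13).

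The difference between AGHMT and GHMT on day 2 was then set against the same contrast on day 7, in separate libraries of the same study and the same fit. On day 7, 48.6% of tested genes were called between AGHMT and GHMT. The difference between the days itself passed edgeR's test for 3906 genes (22.2%), with 2321 having a higher and 1585 a lower log2 fold change at day 7. Of these, 373 were called in opposite directions at the 2 days, 132 of them higher on day 2 and 241 lower on day 2. Interferon-stimulated genes had a median of -1.77 on day 7, against -0.79 on day 2, and 24 of their 41 members differed between the days. Smooth muscle and myofibroblast genes, mostly lower on day 2, had a median of 0.13 on day 7, against -0.68 on day 2, and 17 of 20 members differed. Fibroblast and matrix genes had -0.01 on day 7, against -0.27 on day 2, with 27 of 53 members differing. The lower medians of these last lists on day 2 thus did not hold on day 7. For the TGF-beta and YAP list the median was -0.45 on day 7, against -0.69 on day 2 (17 of 26 members differing). For the macrophage list it was -0.33 on day 7, against -1.26 on day 2 (4 of 22). The median of the ERK list stayed near its day 2 value, at -0.84 on day 7, against -0.81 on day 2. Even so, 14 of its 34 members differed between the days, against 22.2% of all genes. Oxidative phosphorylation had a median of 0.59 on day 7, against 0.56 on day 2, and few of its members differed (4 of 46). The sarcomere list had 0.46 on day 7, against 0.20 on day 2 (25 of 42).

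Several named genes turned round between the days. Pdlim3 was lower on day 2 (-2.48 ± 0.05), whereas its day 7 log2 fold change was 0.21 ± 0.04, a difference of 2.69 ± 0.07 (edgeR, adjusted p = 8.71e-20). Col19a1 had a day 7 value of 0.74 ± 0.13, against -2.58 ± 0.14 on day 2 (edgeR, adjusted p = 9.28e-13). Lmod1, the smooth muscle gene, averaged 112 ± 4.58 CPM in AGHMT cells and 88.3 ± 3.66 CPM in GHMT cells on day 7, a log2 fold change of 0.34 ± 0.05, against -1.08 ± 0.05 on day 2 (edgeR, adjusted p = 1.08e-13). Plin2 went the other way, with -0.19 ± 0.06 on day 7 against 0.69 ± 0.06 on day 2 (edgeR, adjusted p = 8.57e-09). Pfkp had 0.15 ± 0.04 on day 7 against -0.82 ± 0.04 on day 2 (edgeR, adjusted p = 1.59e-12).

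**Figure D5:**
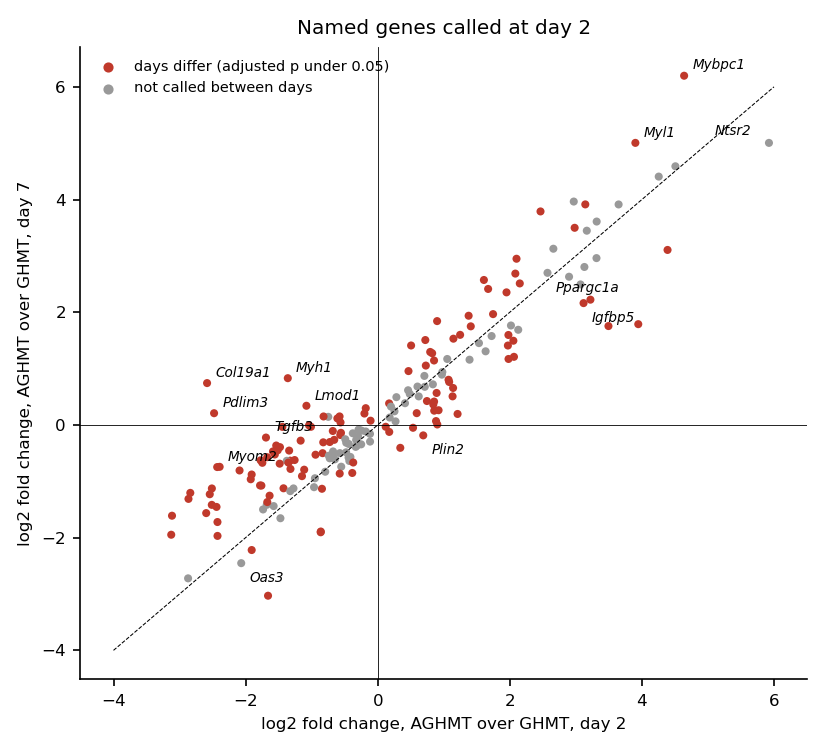
Log2 fold change of AGHMT over GHMT on day 7 (vertical axis) against day 2 (horizontal axis) for 198 named genes called on day 2, with those whose difference between days passed the test marked. The marked genes number 123, and Pdlim3, Col19a1 and Lmod1 lie in the quadrant that is lower on day 2 and higher on day 7.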

How the data were processed

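The authors deposited whole-number read counts per gene for 24 libraries, and a table of log2 CPM that was used only to check that it follows from the counts. Per the submitters' processing notes, Trim Galore 0.4.1, HISAT2 2.0.1, featureCounts 1.4.6, DESeq2 1.6.3 and the mouse build GRCm38/mm10 were used; the strand setting is not given in the sources used here, so reads of overlapping antisense genes cannot be told apart. Assigned reads per library are given with the results, and they limit what can be called for genes near 0.

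Genes were tested with edgeR 4.0.16 in R 4.3.3 (TMM scaling, filterByExpr, robust quasi-likelihood F test, two-sided, Benjamini-Hochberg adjustment over 17576 of 47967 genes, called below 0.05). All 24 libraries entered 1 fit of 8 group means, with 16 residual degrees of freedom, and the contrast was AGHMT minus GHMT on day 2. The day 7 contrast and the difference between days came from the same fit. The fit was also run on simulated counts, whose spread was set from these data and was the same for every gene. The simulation had no trend with transcript length, so it does not show how the test behaves with AGHMT replicate 3. Coordinates and lengths came from the gene annotation of GRCm38, and promoters from RefSeq (GRCm38.p6).

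Deviations of the same-numbered AGHMT and GHMT libraries from their group means correlated at 0.433, 0.334 and 0.713 for replicates 1, 2 and 3 over 10995 genes. Different numbers correlated as well for replicates 1 and 2 (0.460 for AGHMT 2 with GHMT 1 and 0.382 for AGHMT 1 with GHMT 2), whereas replicate 3 correlated negatively with them, so the values mainly set the replicate 3 libraries apart and do not tell pairs 1 and 2 from each other. Deviations from a group mean cancel within the group, so a library that stands apart gives negative values of this kind. The labels do not say what a number shares. A fit with the number as a block was run as an alternative. Other alternatives were DESeq2 1.42.0, RLE scaling, no filter on low counts, per-library offsets for GC content and length, fits of fewer libraries, and omission of each AGHMT and GHMT library of day 2.

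The comparison, the gene lists and the promoter motifs were chosen with earlier results of these data known, and lists are described by counts and medians with no test of the list. Named genes were the cocktail genes, the 15 highest, 15 lowest and 10 smallest adjusted p among 5801 called genes with at least 5 CPM in the higher group, no overlap between groups and a call that held without AGHMT replicate 3, up to 4 called members of each list, and any member of the PI3-kinase and FoxO lists. Genes named outside that rule are standard markers or single exceptions and were chosen after their values were seen: the defining muscle and leukocyte markers, the 4 higher members of the ERK list, the holders of promoter motifs, and the single exceptions in the lists of respiration and ribosome synthesis. Some genes are not reported here.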

Additional observations from a re-analysis of the deposited data

Results flagged for a closer look

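The AGHMT minus GHMT effect differed between day 7 and day 2 for 3906 genes by the test of that difference (edgeR's quasi-likelihood test). Among genes the naming rule covers, 10 were called in opposite directions on the 2 days. For 8 of them the log2 fold change was negative on day 2 and positive on day 7. Pdlim3 differed by 2.69 (day 7 minus day 2), Col19a1 by 3.33, Myh1 by 2.19, Lmod1 by 1.42, Pfkp by 0.97, Slc38a2 by 0.73, Cenpa by 0.48 and Hand2 by 0.40. Plin2 and Gadd45a were higher on day 2 and lower on day 7, and their effects differed by -0.88 and -0.75. Gadd45a, a growth arrest and p53 target gene, had a log2 fold change of -0.41 ± 0.09 on day 7, against 0.34 ± 0.08 on day 2. Hand2, which both cocktails carry, had 0.20 ± 0.05 on day 7, against -0.20 ± 0.05 on day 2. The day 2 calls of Hand2 and Cenpa were lost in the fit of the 6 compared libraries alone. Reads of Myh1 can be shared with its close copies. The day 2 AGHMT libraries include replicate 3, whose levels followed transcript length, and the part of that in these differences was not tested gene by gene.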

How the results depend on the processing

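The number of genes called between AGHMT and GHMT on day 2 stayed within 1.5 times of 9232 under every alternative run. It was 8979 with DESeq2, 9258 with RLE scaling, 9068 with no filter on low counts (34021 genes tested), 8525 with the day 2 libraries alone, 6885 with the 6 compared libraries alone and 10034 with offsets for GC content and length. Leaving out 1 AGHMT or GHMT library gave 8410 to 9264. The fit with the replicate number as a block called 9389 genes, and it ended no call of a named gene. A fit of the compared libraries without AGHMT replicate 3, chosen after seeing the data, called 8903. The count of genes whose difference changed between days was 3797 to 4416 over its alternatives, against 3906. Of up to 218 named genes, 0 to 12 lost their call under any one setting, up to 8 gained one, and 0 changed sign among those called. Most were named for a small adjusted p or a call that held without AGHMT replicate 3, so the choice favours calls that hold. Over all genes, 8146 of the 9232 calls held with the same sign without that library. The cause of each lost call was not tested. With 3 libraries a group, changes of low genes are the least certain.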
